A study of Mus musculus with 23 samples.

Results

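A set of 10 genes of TGF-beta activation and signalling was followed across 23 microarrays of sorted mouse CD4+ T cells, mostly regulatory T cells (Treg cells). The list holds the integrin chains Itgb8 and Itgav, the protease gene Furin, the latency protein gene Lrrc32, the cytokine gene Tgfb1, the receptors Tgfbr1, Tgfbr2 and Tgfbr3, and the intracellular genes Smad3 and Smad7. All probe sets annotated to a member were taken, 22 in all, out of 34945 probe sets named by a single gene symbol. They cover 9 of the 10 genes, and Lrrc32 was not analysed here. For 16 of the 22 probe sets, at least 1 group mean lay above the median of all values, 6.27 on the log2 intensity scale, and these were tested; the other 6 were too dim. Each gene is described first by its lead probe set, the one with the highest mean over all arrays, and all 9 lead probe sets were tested.

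TGF-beta is secreted in a latent form, folded into the remainder of its own precursor, and needs to be released before it can act. The integrin made of the alpha-v and beta-8 chains binds the latent complex and releases the cytokine, and GARP, the product of Lrrc32, holds the complex on the Treg surface. Active TGF-beta binds the type II receptor, which recruits and phosphorylates the type I receptor, which in turn phosphorylates SMAD3. SMAD7 blocks that step. In T cells the pathway is known for restraining activation, for inducing Foxp3 in naive cells and for inducing CD103, the integrin chain encoded by Itgae.

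The arrays fall into 9 groups of male mice aged 6 to 10 weeks, with cells of several mice pooled on each array. LP Treg (2 arrays) and LP Tconv (2 arrays) were Foxp3-GFP+ and Foxp3-GFP- cells of the small intestinal lamina propria of C57BL/6-Foxp3/GFP mice, 4 to 6 mice an array. Homeostatic Foxp3+ (3 arrays) and homeostatic Foxp3- (3 arrays) came from Foxp3-GFP- CD4+ cells of BDC2.5/NOD mice, which carry a transgenic T cell receptor. Those cells were given to NOD RAG-/- hosts, which lack T and B cells of their own but keep other blood cells, and were sorted from spleen and lymph nodes on day 14, with 2 to 3 mice an array. DEC CD25+ (3 arrays) and DEC CD25- (4 arrays) came from CD4+CD25- cells of HA6.5/Thy1.2/RAG-/-/Balb/c mice in Balb/c hosts. The hosts received 50 ng of DEC-HAPeptide each, and cells were sorted from spleen and lymph nodes at 3 weeks, with 5 to 10 mice an array. These 2 groups were sorted on CD25 and not on Foxp3. LN CD103+Klrg1+, LN CD103+Klrg1- and LN CD103-Klrg1- (2 arrays each) were Foxp3-GFP+ cells of peripheral lymph nodes of C57BL/6-Foxp3/GFP mice, 4 to 6 mice an array, divided by the surface proteins CD103 and Klrg1. All sorts kept CD3+ cells and left out cells with B220, CD8a or CD11b/c. Host strain, tissue and history differ between the 3 systems, so these cannot be told apart from one another when systems are compared.

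Genes of the sorts moved with the labels. Foxp3 averaged 11.21 in LP Treg and 4.65 in LP Tconv, 10.42 in homeostatic Foxp3+ and 4.76 in homeostatic Foxp3-, and 10.47 in DEC CD25+ and 7.97 in DEC CD25- on the log2 intensity scale. All 7 CD4 T cell markers measured had group means above the filter in every group. Median intensities ran from 63.7 to 81.1, and the lowest were DEC CD25- replicate 4 (63.7) and replicate 3 (68.5). On replicate 3 the 3' probe set of Gapdh also exceeded its 5' probe set by 6.59 log2 units, against 1.63 to 3.92 on the other arrays. A list of 12 myeloid and dendritic markers, a cell type that itself uses this pathway, averaged 7.95 in homeostatic Foxp3+ and 8.22 in homeostatic Foxp3- arrays. The DEC means were 7.36 for CD25+ and 6.71 for CD25-, and all gut and node groups lay between 6.42 and 6.69. Platelet and megakaryocyte markers (5 genes) averaged 6.81 in homeostatic Foxp3+ and 6.89 in homeostatic Foxp3- arrays, against 5.76 to 6.11 in other groups. For 2 erythroid markers these means were 7.02 and 7.44, against 5.29 to 5.91. The part of these markers, and of the dim arrays, in the member values was not tested except where a value is given.

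Sequences around the start of a gene are shown for Itgb8 and Tgfbr1, the members that were higher together in LP Treg than in LP Tconv cells. They are from RefSeq on GRCm38.p6 and run from 250 bases before to 50 bases after the annotated start. Such windows were taken for 7 members. Capitals mark CAGAC or its reverse complement GTCTG, the core letters that SMAD proteins are known to bind, and GGCGC or GCGCC, a GC-rich SMAD motif; both strands were searched, and the motifs can overlap. The Itgb8 window is at chr12:119238227-119238526 on the minus strand and the Tgfbr1 window at chr4:47352972-47353271 on the plus strand.
Itgb8: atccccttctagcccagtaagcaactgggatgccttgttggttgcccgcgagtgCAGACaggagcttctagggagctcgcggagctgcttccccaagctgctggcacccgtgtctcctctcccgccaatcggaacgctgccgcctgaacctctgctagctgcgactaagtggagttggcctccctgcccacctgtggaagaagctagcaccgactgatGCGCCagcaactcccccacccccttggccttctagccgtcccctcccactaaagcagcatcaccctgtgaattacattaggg
Tgfbr1: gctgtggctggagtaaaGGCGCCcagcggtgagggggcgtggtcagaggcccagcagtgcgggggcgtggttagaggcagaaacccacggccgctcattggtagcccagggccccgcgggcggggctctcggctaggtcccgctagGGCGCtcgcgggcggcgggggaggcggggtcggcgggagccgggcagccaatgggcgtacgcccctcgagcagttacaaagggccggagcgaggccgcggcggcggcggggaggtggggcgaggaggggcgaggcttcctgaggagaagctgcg
The Itgb8 window has 1 match to each motif, and the Tgfbr1 window shown has 3 matches to GGCGC and 0 to CAGAC. The window of another annotated Tgfbr1 start, at chr4:47385966-47386265, is not shown and has 1 match to CAGAC and 0 to GGCGC. Across 32851 windows of 300 bases, 49.6% hold CAGAC and 36.9% hold GGCGC on either strand, so a match is common. These matches describe letters only.

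LP Treg and LP Tconv cells differed in 3 of the 9 members, which asked what sets gut Treg cells apart from their Foxp3- neighbours. Itgb8 and Tgfbr1 rose and Tgfbr3 fell. Over all 21612 probe sets tested, 2.36% were called in this comparison, where called means a limma p below 0.05 after Benjamini-Hochberg adjustment over all of them. The median difference of the 9 members was 0.0026 on the log2 scale, against -0.0136 over all probe sets. Arrays of the 2 groups did not overlap in 6 of 9 members and in 30.9% of all genes tested, each by its lead probe set.

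Itgb8, the beta-8 chain of the activating integrin, had 10.58 and 10.53 in LP Treg and 4.25 and 3.94 in LP Tconv cells, as log2 intensity. The Tconv arrays lay below the filter and the Treg arrays far above them. The log2 fold change was 6.46 ± 0.49 (SE, n = 2 and 2 arrays, adjusted p = 3.14e-07), at least 88.0-fold, since background can hold up the lower value. In sorted bulk cells, fewer cells with a transcript and less transcript per cell cannot be told apart.

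Its partner chain Itgav, which pairs with several beta chains, had 11.27 and 11.26 in LP Treg and 10.35 and 10.19 in LP Tconv cells. The arrays did not overlap, but the difference of 0.99 ± 0.30 did not pass the threshold (adjusted p = 0.115). The Itgav probe set with the second-highest mean had 8.63 and 7.92 in LP Treg and 6.73 and 6.53 in LP Tconv cells and was called (1.65 ± 0.39, adjusted p = 0.0298).

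Tgfbr1, the type I receptor that carries the kinase acting on SMAD3, had 12.29 and 12.34 in LP Treg and 10.23 and 10.22 in LP Tconv cells. The difference was far wider than the spread within either group. It amounted to 4.25-fold (2.09 ± 0.39, adjusted p = 0.00436). A fit to these 4 arrays alone left the value as it was with adjusted p = 0.110, and the cause of the lost call was not tested. That fit called 5 of all 21612 probe sets, against 509 in the fit to all arrays. The other tested Tgfbr1 probe set, which read about at the filter, had 6.73 and 6.24 in LP Treg and 6.21 and 5.78 in LP Tconv cells and was not called (0.49 ± 0.24, adjusted p = 0.652). The mean of all Tgfbr1 probe sets gave 0.99 and a call (adjusted p = 0.00582).

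Tgfbr3, the co-receptor betaglycan that presents TGF-beta to the type II receptor, went the other way. It had 6.96 and 6.84 in LP Treg and 9.94 and 10.40 in LP Tconv cells, with no overlap. The fold change was -3.27 ± 0.62, 9.65-fold lower in Treg cells (adjusted p = 0.00525). The other Tgfbr3 probe set, close above the filter, went the opposite way without overlap, with 6.44 and 6.62 in LP Treg and 6.25 and 6.28 in LP Tconv cells (0.26 ± 0.21, not called, adjusted p = 0.9997). The mean of both gave -1.50 and a call (adjusted p = 0.0248). The call ended without LP Treg replicate 2 (adjusted p = 0.0510), without LP Tconv replicate 2 (0.0664) and in a fit to the 4 arrays alone (0.0679). The fit to 4 arrays called 5 probe sets in all, against 509 in the fit to all arrays. A list of CD8 T and NK cell markers averaged 5.95 to 6.16 on LP Treg arrays (2 of 5 genes above the filter) and 6.55 to 6.87 on LP Tconv arrays (3 of 5), and its part in the Tgfbr3 difference was not tested.

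Tgfbr2, the type II receptor that binds the cytokine first, had 10.98 and 10.94 in LP Treg and 12.06 and 12.60 in LP Tconv cells. The groups did not overlap, with a difference of -1.37 ± 0.43 that was not called (adjusted p = 0.144). It was called after quantile normalization (-1.41, adjusted p = 0.0113), after cyclic loess normalization (-1.42, adjusted p = 0.00752) and without DEC CD25- replicates 3 and 4 (adjusted p = 0.000542). On the dimmer tested probe set Tgfbr2 had 6.88 and 6.84 in LP Treg and 6.73 and 7.91 in LP Tconv cells, which overlap, and the mean of its probe sets gave -0.64 (adjusted p = 0.362). Smad3, the signal carrier, had 10.99 and 11.12 in LP Treg and 10.28 and 10.40 in LP Tconv cells (0.72 ± 0.20, adjusted p = 0.0886).

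The remaining members gave small differences between gut cells. Tgfb1 differed by 0.0026 ± 0.18 and Smad7, the inhibitor, by -0.050 ± 0.41, both with adjusted p = 0.9997. Furin, a protease known to cleave the TGF-beta precursor, had 6.86 and 6.93 in LP Treg cells. In LP Tconv cells it had 9.12 on replicate 1 and 6.00 on replicate 2, so these arrays disagreed by more than the groups did (-0.66 ± 0.68, adjusted p = 0.9997).

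**Figure D1:**
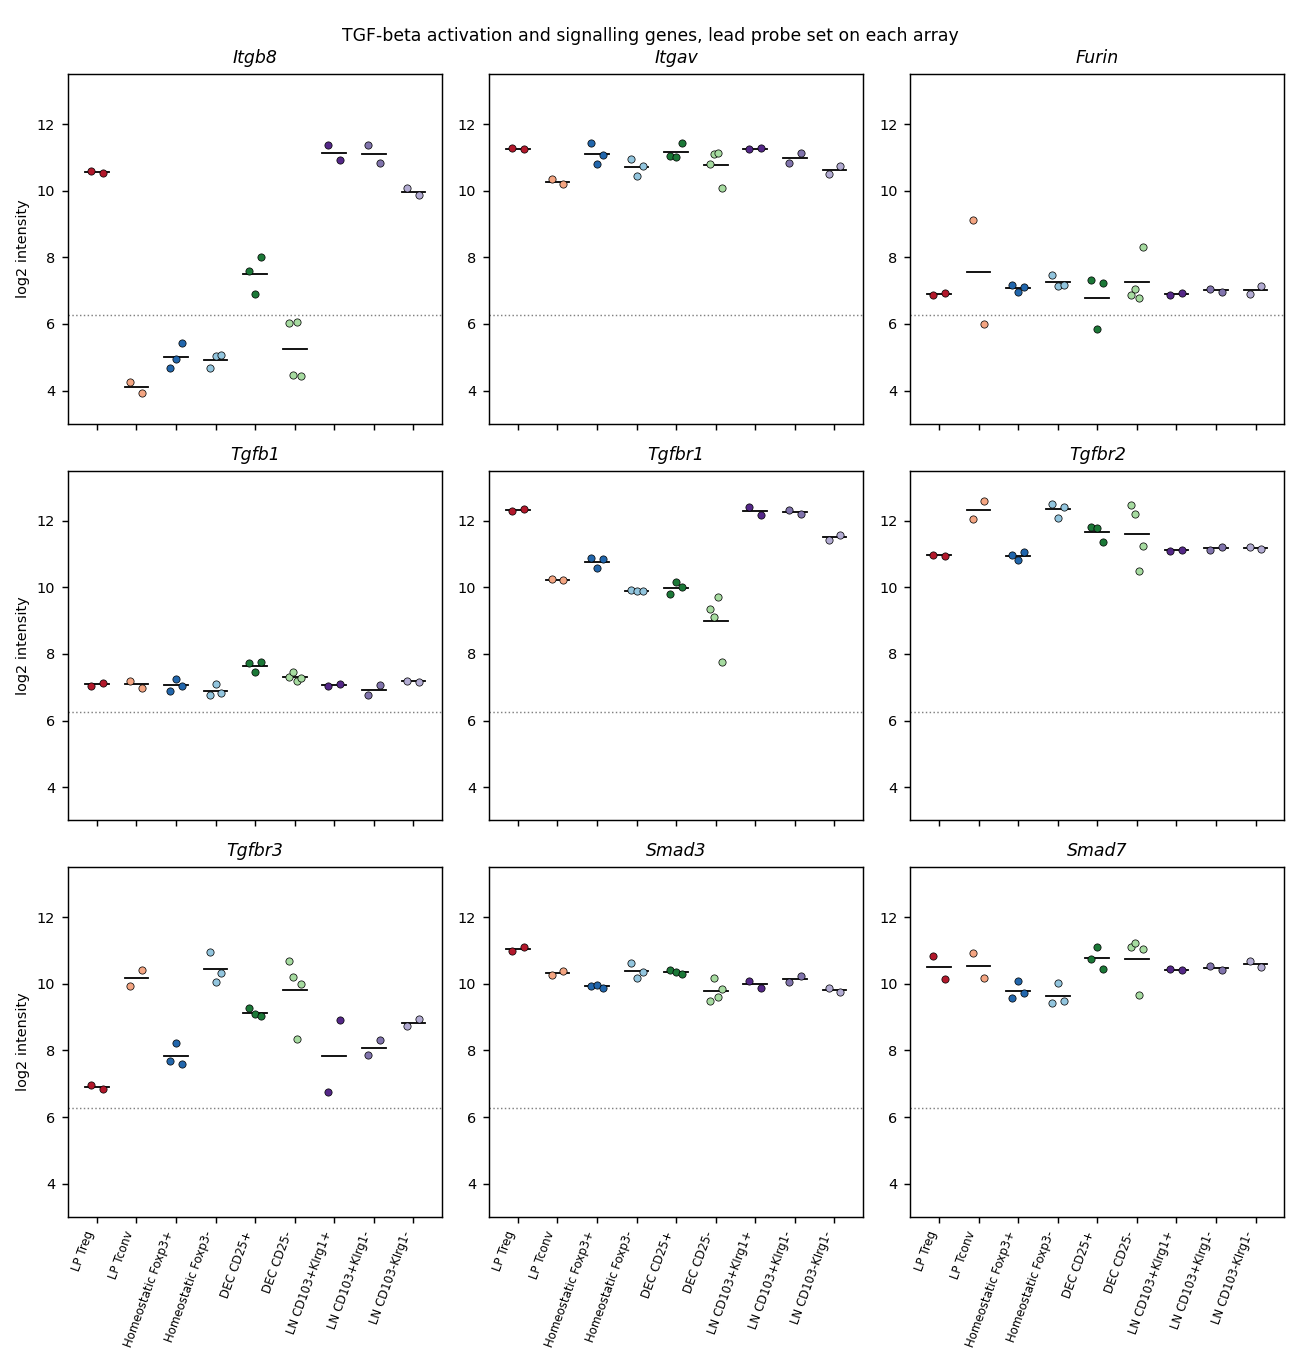
Log2 intensity (vertical axis) of the lead probe set of each of 9 genes on all 23 arrays, by group, with a point an array, a bar at the group mean and a dotted line at the filter of 6.27. Itgb8 spans the widest range, with group means from 4.09 to 11.14, and Tgfbr1 and Tgfbr3 come next.

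Homeostatic Foxp3+ cells, which arose from transferred Foxp3- cells in hosts without lymphocytes, were compared with the cells that had stayed Foxp3-. Tgfbr3 was the 1 member of 9 called in the main fit, which pairs no arrays, and it fell. Over all probe sets tested, 1.39% were called. The median difference of the members was 0.0888, against -0.011 over all probe sets. Arrays did not overlap in 4 of 9 members and in 22.3% of all genes tested. Tgfbr3 had 7.68, 8.23 and 7.59 in Foxp3+ and 10.95, 10.05 and 10.33 in Foxp3- cells. All Foxp3+ arrays lay below all Foxp3- arrays, by 6.09-fold in the mean (-2.61 ± 0.51, n = 3 and 3 arrays, adjusted p = 0.00938). The other Tgfbr3 probe set lay lower in Foxp3+ cells too, by less and without a call (-0.33 ± 0.17, adjusted p = 0.888), and the mean of both gave -1.47 and a call (adjusted p = 0.0106). The call ended without homeostatic Foxp3+ replicate 1 (adjusted p = 0.0554), Foxp3+ replicate 3 (0.0613) or Foxp3- replicate 1 (0.0765). The CD8 T and NK cell list averaged 6.42 to 7.41 on Foxp3+ and 7.30 to 7.65 on Foxp3- arrays (4 of 5 genes above the filter in both), and again its part was not tested.

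Tgfbr2 had 10.98, 10.80 and 11.06 in homeostatic Foxp3+ and 12.51, 12.09 and 12.40 in homeostatic Foxp3- cells. The groups were apart by over 1 log2 unit, yet the difference of -1.39 ± 0.35 stayed just above the threshold (adjusted p = 0.0603). With same-numbered arrays as pairs in a replicate block, it was called at the same value (adjusted p = 0.0129). The dimmer tested Tgfbr2 probe set overlapped between the groups (-0.077 ± 0.31, adjusted p = 1), and the mean of all Tgfbr2 probe sets gave -0.46 (adjusted p = 0.600). Tgfbr1 had 10.87, 10.57 and 10.84 in Foxp3+ and 9.90, 9.88 and 9.87 in Foxp3- cells, again without overlap. Its difference of 0.87 ± 0.32 had adjusted p = 0.352 without the replicate block and 0.0143 with it. The other tested Tgfbr1 probe set gave 0.060 ± 0.20, and the mean of all Tgfbr1 probe sets 0.29 (adjusted p = 0.788).

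Itgb8 stayed dim in this system. It had 4.68, 4.93 and 5.42 in homeostatic Foxp3+ and 4.67, 5.03 and 5.07 in homeostatic Foxp3- cells, all below the filter of 6.27, although the Foxp3+ cells held Foxp3 transcript. Both groups being near background, their measured difference of 0.089 ± 0.40 is not read as a fold. Smad3 had 9.94, 9.97 and 9.89 in Foxp3+ and 10.61, 10.17 and 10.36 in Foxp3- cells (-0.45 ± 0.17, adjusted p = 0.379). Itgav, Tgfb1, Smad7 and Furin differed by 0.39, 0.16, 0.15 and -0.17 with adjusted p = 1.

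DEC CD25+ cells had met their peptide through an antibody to DEC-205, a receptor of dendritic cells, and were compared with CD25- cells of the same kind of transfer. Itgb8 was the 1 member of 9 called, and it rose, where 0.379% of all probe sets tested were called. The median over all probe sets was itself 0.18 in this comparison, and that of the members was 0.34. Arrays did not overlap in 4 of 9 members and in 5.46% of all genes tested. Itgb8 had 7.59, 6.89 and 7.998 in DEC CD25+ cells and 6.02, 4.46, 6.05 and 4.43 in DEC CD25- cells. All CD25+ arrays lay above the filter and all CD25- arrays below it. The difference was 2.26 ± 0.37 (n = 3 and 4 arrays, adjusted p = 0.00763), at least 4.78-fold. The call ended without DEC CD25+ replicate 3 (2.00, adjusted p = 0.0799) and in a fit to these 7 arrays alone (adjusted p = 0.697). The fit to 7 arrays called 4 of all 21612 probe sets, against 82 in the fit to all arrays. B cell markers averaged 6.43 to 6.91 on DEC CD25+ arrays (4 of 5 genes above the filter) and 5.99 to 6.34 on DEC CD25- arrays (2 of 5). CD4 T cell markers averaged 11.13 to 11.48 on CD25+ and 9.74 to 11.25 on CD25- arrays, and the part of either list in the DEC differences was not tested.

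Tgfbr1 had 9.80, 10.17 and 10.00 in DEC CD25+ cells and 9.33, 9.10, 9.71 and 7.75 in DEC CD25- cells. No array overlapped, and the lowest was the dim replicate 4. The difference of 1.02 ± 0.30 was not called (adjusted p = 0.156). Without DEC CD25- replicates 3 and 4 it was 0.78 and was called (adjusted p = 0.0362). It was also called without DEC CD25- replicate 1 (1.14, adjusted p = 0.0498).

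The other receptors did not separate the DEC groups. Tgfbr2 had 11.82, 11.77 and 11.36 in DEC CD25+ cells, inside the range of 10.48 to 12.46 of DEC CD25- cells (0.059 ± 0.33, adjusted p = 0.945). Tgfbr3 had 9.28, 9.09 and 9.03 in DEC CD25+ cells and 10.70, 10.22, 8.33 and 9.99 in DEC CD25- cells. The low value of 8.33 was replicate 3, and the difference was -0.68 ± 0.47 (95% interval -1.68 to 0.32, adjusted p = 0.495). Smad3 had 10.43, 10.37 and 10.29 in DEC CD25+ cells and 9.47, 10.17, 9.61 and 9.86 in DEC CD25- cells, without overlap (0.58 ± 0.16, adjusted p = 0.125).

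**Figure D2:**
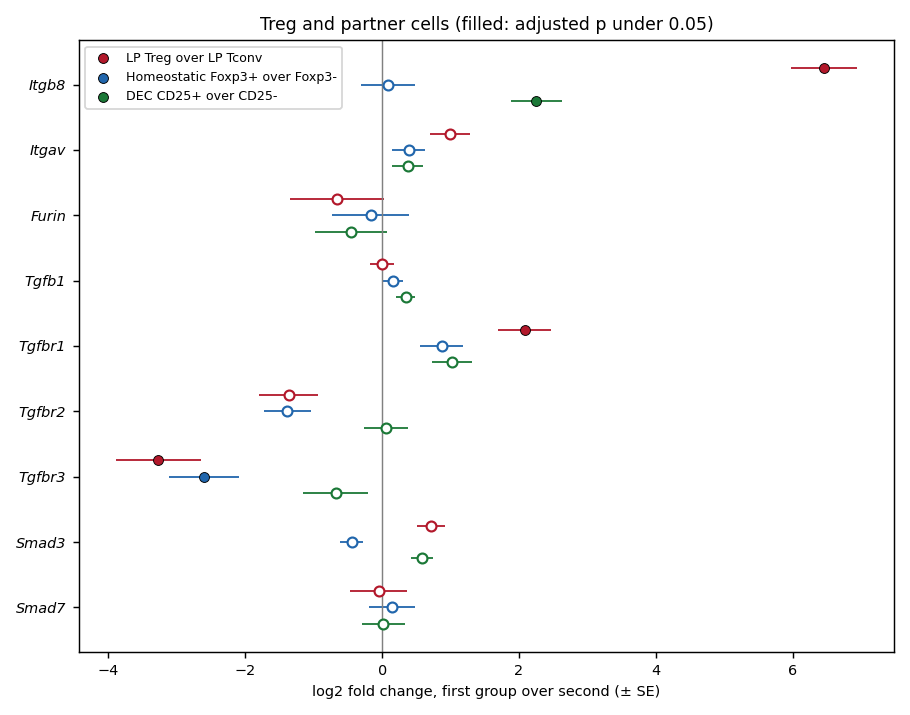
Log2 fold change (horizontal axis, with SE) of each gene's lead probe set for LP Treg over LP Tconv, homeostatic Foxp3+ over Foxp3-, and DEC CD25+ over CD25- cells; filled points passed an adjusted p of 0.05. Itgb8 lies at 6.46 in the gut and 2.26 in the DEC system, with both groups below the filter in the homeostatic system, and Tgfbr3 lies at -3.27, -2.61 and -0.68 in the gut, homeostatic and DEC systems.

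An interaction term for each probe set tested whether these differences were unequal between systems. The LP difference exceeded the homeostatic one in 2 of 9 members, where 0.703% of all probe sets tested were called. For Itgb8 the gap was 6.37 ± 0.63 on the measured scale (adjusted p = 3.42e-05). The LP Tconv (4.09), homeostatic Foxp3+ (5.01), homeostatic Foxp3- (4.92) and DEC CD25- (5.24) means of Itgb8 all lay below the filter, so the size of this gap and of those with the DEC difference is not known, and a gap between 2 lower bounds is no bound itself. For Smad3 it was 1.16 ± 0.26 (adjusted p = 0.0490), a call that ended under most alternatives, among them the replicate block (adjusted p = 0.0567). Smad3 was higher in Treg than in partner cells of the gut and lower in the homeostatic system, though neither difference was called alone.

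The LP difference exceeded the DEC one in 1 member, Itgb8 (4.20 ± 0.61, adjusted p = 0.00139), where 0.939% of all probe sets tested were called. Fitted on those 11 arrays alone, that gap had adjusted p = 0.0825, in a fit that called 31 probe sets against 203 with all arrays. In the limma interaction on all arrays Foxp3 gave 4.07 ± 0.46 (adjusted p = 0.000152), with means of 7.97 in DEC CD25- and 4.65 in LP Tconv cells. The part of this Foxp3 gap in the Itgb8 gap was not tested. Between the homeostatic and the DEC difference 0 of 9 members were called in the limma fit, where 0.282% of all probe sets tested were. Smad3 came closest to a call (-1.03 ± 0.23, adjusted p = 0.0716), and was called with array weights (-0.87, adjusted p = 0.0289) and without DEC CD25- replicate 2 (-1.16, adjusted p = 0.0191). Itgb8, again with 3 of 4 means below the filter, gave -2.17 ± 0.54 (adjusted p = 0.135) and passed the threshold under the replicate block (-1.90, adjusted p = 0.00867), to which DEC CD25- replicate 4 has no partner and adds nothing. The replicate block also moved the Tgfbr1 gaps past the threshold, to 1.22 for LP minus homeostatic (adjusted p = 0.0438) and to 1.48 for LP minus DEC (adjusted p = 0.0169). Tgfbr3, called in the gut and homeostatic systems and not in the DEC cells, had no called difference between systems.

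The 3 lymph node Treg subsets were compared among themselves, and 0 of 9 members were called in any pair. Over all probe sets tested, 0.0833% were called for LN CD103+Klrg1- with LN CD103-Klrg1-, 0.44% for LN CD103+Klrg1+ with LN CD103+Klrg1-, and 1.88% for LN CD103+Klrg1+ with LN CD103-Klrg1-. The smallest count is 18 probe sets of 21612, so little was called in that pair at all. At an unadjusted limma p below 0.05 there were 388, 736 and 1353 probe sets. Arrays did not overlap in 6, 2 and 7 of the 9 members and in 29.7%, 31% and 36.8% of all genes tested. Itgb8 was bright in every subset. It had 11.36 and 10.92 in CD103+Klrg1+, 11.37 and 10.84 in CD103+Klrg1- and 10.07 and 9.86 in CD103-Klrg1- cells. Both CD103+ subsets lay above the CD103- subset on every array, by 1.18 ± 0.49 for CD103+Klrg1+ (95% interval 0.15 to 2.20, adjusted p = 0.544) and 1.14 ± 0.49 for CD103+Klrg1- (adjusted p = 1).

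Tgfbr1 was ordered the same way, with 12.41 and 12.16 in CD103+Klrg1+, 12.33 and 12.20 in CD103+Klrg1- and 11.43 and 11.57 in CD103-Klrg1- cells. The differences from the CD103-Klrg1- subset were 0.79 ± 0.39 and 0.77 ± 0.39 (adjusted p = 0.860 and 1). The first was called without DEC CD25- replicates 3 and 4, arrays of other groups that share in the estimate of spread (adjusted p = 0.00906). Tgfbr3 had 6.75 and 8.93 in CD103+Klrg1+, 7.85 and 8.32 in CD103+Klrg1- and 8.73 and 8.95 in CD103-Klrg1- cells, so the CD103+Klrg1+ arrays disagreed by over 2 log2 units. Tgfbr2 hardly moved, from 11.10 to 11.22 on all 6 arrays.

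LP Treg cells were set against each lymph node subset, which compares Treg cells of gut and node within 1 strain. Smad3 was the 1 member of 9 called in each of these comparisons, which share the LP Treg arrays. It rose, where 5.03% of all probe sets tested were called against LN CD103-Klrg1-, 3.2% against LN CD103+Klrg1- and 2.36% against LN CD103+Klrg1+. In the same order, arrays did not overlap in 7, 6 and 3 of the 9 members and in 53.2%, 56.8% and 49.5% of all genes tested. Smad3 had 10.99 and 11.12 in LP Treg cells, against 10.09 and 9.87 in CD103+Klrg1+, 10.05 and 10.23 in CD103+Klrg1- and 9.87 and 9.75 in CD103-Klrg1- cells. Both gut arrays lay above all 6 node arrays. The differences were 1.25 ± 0.20 against CD103-Klrg1- (adjusted p = 0.00109), 0.92 ± 0.20 against CD103+Klrg1- (0.0170) and 1.07 ± 0.20 against CD103+Klrg1+ (0.00584). A list of B cell markers averaged 6.23 to 6.35 on LP Treg arrays (2 of 5 genes above the filter) and 6.85 to 8.25 on node arrays (4 of 5), and its part in the gut and node differences was not tested.

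With 2 arrays a group, the last pair of Smad3 calls was fragile. Against CD103+Klrg1- it ended on leaving out any 1 of the 4 arrays: LP Treg replicate 1 (0.98, adjusted p = 0.118), LP Treg replicate 2 (0.85, 0.105), CD103+Klrg1- replicate 1 (0.82, 0.175) or its replicate 2 (1.01, 0.0840). Against CD103+Klrg1+ it ended without LP Treg replicate 1 (adjusted p = 0.0508), LP Treg replicate 2 (0.0547) or CD103+Klrg1+ replicate 2 (0.106). The other 2 Smad3 probe sets were too dim to test, and the mean of all 3 gave 0.62, 0.59 and 0.65 against CD103-Klrg1-, CD103+Klrg1- and CD103+Klrg1+, each called.

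Itgav gave different answers by probe set. The lead probe set had 11.27 and 11.26 in LP Treg, against 11.25 and 11.27 in CD103+Klrg1+, 10.83 and 11.14 in CD103+Klrg1- and 10.51 and 10.75 in CD103-Klrg1- cells, with none of the 3 comparisons called. The second-brightest probe set had 8.63 and 7.92 in LP Treg, against 6.74 and 6.20, 6.16 and 6.26, and 5.75 and 5.67 in the same order. It was called in all 3 comparisons, with differences of 1.80 ± 0.39 (adjusted p = 0.0178), 2.07 ± 0.39 (0.00638) and 2.56 ± 0.39 (0.000703), which are lower bounds where node arrays lay below the filter. The 2 probe sets cannot both stand for the level of all Itgav transcripts, and which of them does was not tested.

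Itgb8 was not called between LP Treg cells and any node subset. Its arrays did not overlap, which held for 49.5% to 56.8% of all genes tested in these comparisons. Its LP Treg level of 10.58 and 10.53 fell between the CD103+ subsets and the CD103- subset. The differences were -0.59, -0.55 and 0.59 (each ± 0.49) against CD103+Klrg1+, CD103+Klrg1- and CD103-Klrg1-, with 95% intervals of -1.61 to 0.43, -1.58 to 0.47 and -0.44 to 1.61. Tgfbr1 in LP Treg cells lay within 0.05 log2 units of both CD103+ subsets in the mean (0.031 ± 0.39 and 0.048 ± 0.39) and 0.82 ± 0.39 above CD103-Klrg1- (adjusted p = 0.313). Tgfbr3 in LP Treg lay below both CD103-Klrg1- arrays (-1.94 ± 0.62, adjusted p = 0.0885). That difference was called in a fit to those 4 arrays alone (adjusted p = 0.00646) and without DEC CD25- replicates 3 and 4 (0.0157). Those fits called 1612 and 2162 probe sets in all, against 1088 in the main fit.

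**Figure D3:**
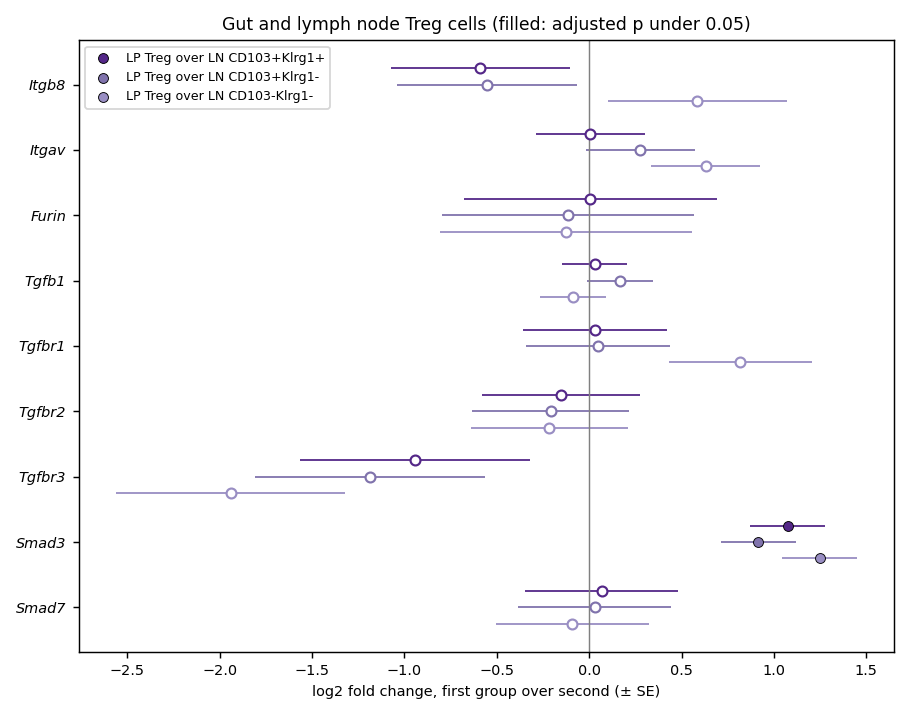
Log2 fold change (horizontal axis, with SE) of each gene's lead probe set for LP Treg over each lymph node Treg subset; filled points passed an adjusted p of 0.05. Smad3 is the filled gene, at 1.07, 0.92 and 1.25 over CD103+Klrg1+, CD103+Klrg1- and CD103-Klrg1-.

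Across all groups, Itgb8 had the widest range of any member, 7.05 log2 units between group means, followed by Tgfbr3 with 3.54 and Tgfbr1 with 3.34. Group means of Itgb8 ran in the order LN CD103+Klrg1+ (11.14 ± 0.31, SD), LN CD103+Klrg1- (11.11 ± 0.38), LP Treg (10.55 ± 0.04), LN CD103-Klrg1- (9.97 ± 0.14) and DEC CD25+ (7.49 ± 0.56), followed by 4 groups below the filter. The first pair overlapped and the next 3 steps did not. Of the 6 Foxp3+ or CD25+ groups, homeostatic Foxp3+ was the 1 in which Itgb8 lay below the filter.

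On the lead probe sets, Tgfbr1 was highest in LP Treg (12.32 ± 0.03) and the CD103+ node subsets and lowest in DEC CD25- cells (8.97 ± 0.85). Tgfbr2 ran the other way within the gut and homeostatic systems, highest in homeostatic Foxp3- (12.33 ± 0.22) and LP Tconv cells (12.33 ± 0.38) and lowest in homeostatic Foxp3+ and LP Treg cells. Tgfbr3 was highest in homeostatic Foxp3- (10.44 ± 0.46) and LP Tconv cells (10.17 ± 0.33) and lowest in LP Treg cells (6.90 ± 0.08). The other Tgfbr3 probe set spanned 6.27 to 6.94 in group means, highest in homeostatic Foxp3- and lowest in LP Tconv cells.

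Tgfb1, Furin and Smad7 were called in none of the 9 comparisons or 3 interactions of the limma fit. The lead Tgfb1 probe set ran from 6.76 to 7.77 over all 23 arrays, close above the filter. It was highest in DEC CD25+ cells with 7.72, 7.45 and 7.77, against 7.29, 7.45, 7.20 and 7.28 in DEC CD25- cells (0.34 ± 0.14, adjusted p = 0.259). The other Tgfb1 probe set read 10.25 on DEC CD25- replicate 4 and from 6.38 to 7.14 on every other array. Furin ran from 5.85 on DEC CD25+ replicate 2 to 9.12 on LP Tconv replicate 1. Smad7 ran from 9.42 to 11.21 and was lowest in the homeostatic groups, with 9.59, 10.08 and 9.72 in Foxp3+ and 9.42, 10.03 and 9.49 in Foxp3- cells. Its second probe set, whose name ends in x_at, of a class that can share probes with other transcripts, read highest in DEC CD25- cells, with 9.05, 9.58, 10.40 and 9.29.

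**Figure D4:**
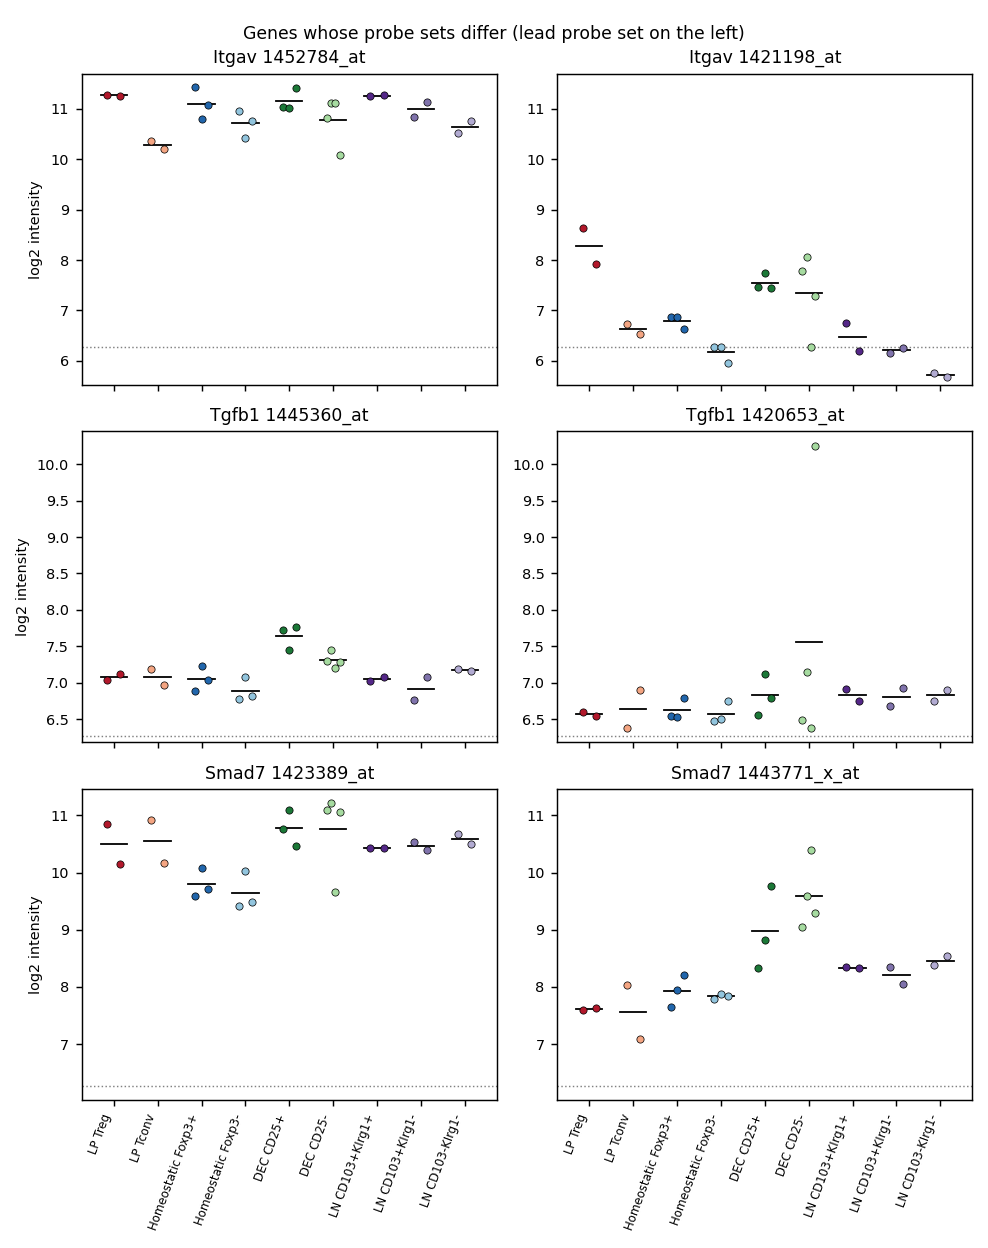
Log2 intensity (vertical axis) on all 23 arrays, by group, for the lead probe set (left) and a second probe set (right) of Itgav, Tgfb1 and Smad7, with a point an array, a bar at the group mean and a dotted line at the filter. The second Itgav probe set stands highest in LP Treg cells, and the second Tgfb1 probe set reads 10.25 on a single DEC CD25- array.

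Gene profiles most like those of the widest-ranging members were ranked by Pearson's r over the 9 group means among 12507 other genes, as a description without a test. For Itgb8 they were Tpp1 (0.979), Ppm1l (0.976), Map4k5 (0.975), Cert1 (0.970) and Lclat1 (0.966). Foxp3 stood at rank 365 with r = 0.772. For Tgfbr3 they were Dennd2d (0.975), Stimate (0.941), Gm15706 (0.933), Prag1 (0.932) and Tdrp (0.932), and Foxp3 had r = -0.869. For Tgfbr1 they were Peak1 (0.984), Cmtm7 (0.977), Shisa5 (0.969), Msh6 (0.968) and Cd99l2 (0.966), with Foxp3 at 0.651. These points share arrays and groups, and each group weighs the same.

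Other genes of the pathway were taken from 4 lists of 84 genes, of which 67 were tested, each by its lead probe set. Between LP Treg and LP Tconv 5 rose and 1 fell, where 2.36% of all probe sets tested were called. Among 12 genes of latency and activation Mmp9, a gelatinase that can release TGF-beta, rose by 3.29 ± 0.33. Among 12 receptor genes Nrp1, a surface protein that can bind TGF-beta, rose by 2.28 ± 0.40 and Bmpr2, a BMP type II receptor, by 1.98 ± 0.49. Among 27 Smads and regulators 0 were called by limma. Among 16 genes known to respond to TGF-beta the gut homing receptor Gpr15 rose by 4.00 ± 0.38 and Rgs16 by 2.07 ± 0.48, while the integrin chain Itga1 fell by at least 1.86 on the log2 scale.

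In homeostatic Foxp3+ cells 2 of the 67 listed genes rose and 2 fell, against 1.39% of all probe sets called, and all 4 are from the TGF-beta responsive list. Itgae rose by 3.09 ± 0.50 and Gpr15 by 1.68 ± 0.31, and Id2, an inhibitor of helix-loop-helix factors, and P2rx7, an ATP receptor, differed by -1.73 ± 0.31 and -1.54 ± 0.30. In DEC CD25+ cells 2 rose and 0 fell by limma, against 0.379% of all probe sets called, namely Itgae (2.77 ± 0.47) and Nedd4l, a ubiquitin ligase known to act on SMAD proteins (1.42 ± 0.28, a lower bound). Median differences of the 16 responsive genes were 0.0019, -0.27 and 0.34 in the gut, homeostatic and DEC systems, against -0.0075, -0.027 and 0.16 over all genes tested.

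Among the lymph node subsets 2 of the 67 listed genes rose in CD103+Klrg1- over CD103-Klrg1- cells, against 0.0833% of all probe sets called, namely Itgae, the gene of the sort marker CD103 (4.71 ± 0.61), and Gpr15 (2.41 ± 0.38). CD103+Klrg1+ over CD103+Klrg1- cells gave Id2 higher (1.90 ± 0.39) and P2rx7 lower (-1.99 ± 0.36), against 0.44% of all probe sets. CD103+Klrg1+ over CD103-Klrg1- cells gave 5 higher and 1 lower, against 1.88% of all probe sets. The higher ones were Itgae, the gene of the protein these cells were sorted on (5.17 ± 0.61), Mmp9 (at least 1.36), Gpr15 (2.78 ± 0.38), Id2 (2.72 ± 0.39) and the BMP receptor Bmpr1a (1.54 ± 0.28), and the lower one was P2rx7 (-1.97 ± 0.36).

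LP Treg cells differed from CD103-Klrg1- node cells in 10 of the 67 listed genes, 7 higher and 3 lower, against 5.03% of all probe sets called. Among the 7 is Itgae (4.92 ± 0.61), whose protein the node cells were sorted to lack. Mmp9 rose by at least 4.35, Id2 by 3.96 ± 0.39 and Gpr15 by 3.01 ± 0.38. Lower were Nrp1 (-1.76 ± 0.40), Smad1, a carrier of BMP signals (-1.96 ± 0.52), and Id3 (at most -3.01), a relative of Id2. Against CD103+Klrg1- cells 4 rose and 3 fell (3.2% of all probe sets called), with Itgb1, the beta-1 integrin chain that can pair with the Itgav product, at -2.05 ± 0.52. Against CD103+Klrg1+ cells (2.36% called) Mmp9 (2.99 ± 0.33) and P2rx7 (3.39 ± 0.36) rose and Bmpr1a fell by 1.23 on the log2 scale. Nrp1 thus stood higher in LP Treg than in LP Tconv cells and lower than in the CD103-Klrg1- and CD103+Klrg1- node subsets.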

How the data were processed

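The 23 Affymetrix M430v2 arrays hold RNA of sorted CD4+ T cells. Per the labels' protocols, RNA was isolated with Trizol and amplified in 2 rounds, which favours the 3' ends of transcripts. The deposited values are intensities, made by the authors with RMA in GenePattern, per the series' design text, whose version is not given in the sources used here. They are linear (4.706 to 26750) and log2 was taken with no pseudocount.

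Probe sets were named by the platform annotation, with symbols checked through RefSeq. Of 45101 probe sets, 34945 had 1 symbol, 932 several, 9160 none and 64 were controls. A probe set was tested when at least 1 group mean exceeded the median of all values (77.0 intensity, 6.27 log2), which left 21612. All arrays entered 1 limma 3.58.1 model (R 4.3.3) with 9 group means (lmFit, eBayes; 14 residual and 3.44 prior degrees of freedom). Adjusted p-values are Benjamini-Hochberg over all 21612, two-sided. The fit was tested on simulated data. Folds whose lower mean lay below the filter are lower bounds. Tables and figures used Python with pandas, numpy and matplotlib.

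The members and gene lists were chosen with earlier results of these data known. Genes named in the text were all members, the sort markers, up to 4 called genes with the smallest p in each list and comparison, and the 5 genes most like the 3 members with the widest range. P-values measure the spread between pools of mice, and the number of arrays limits the precision. No 2 arrays held the same values. The labels do not say that replicate numbers mark shared pools. Residuals of same-numbered arrays correlated at 0.63, 0.56 and 0.50 in the homeostatic groups and at 0.38, 0.49 and 0.40 in the DEC groups. They correlated at -0.0032 between LP Treg and LP Tconv. Among the node subsets they correlated at 0.43, 0.40 and 0.70, but over 2 numbers, so no pairing was read there. The main fit pairs no arrays, so its homeostatic and DEC p-values leave out this likeness. The replicate block is given as an alternative.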

Additional observations from a re-analysis of the deposited data

Results flagged for a closer look

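Of 22 sets of 4 values in the DEC CD25- group, 1 for each member probe set, 4 had an array far from the other 3 by Dixon's criterion. By chance the criterion flags a single set about 1 time in 20. These sets share the same 4 arrays, so they are not independent, and the share over all probe sets was not computed. Furin read 8.32 on replicate 4, against at most 7.03 on the others. The lead Smad7 probe set read 9.66 on replicate 3, against at least 11.06. A dimmer Tgfbr2 probe set read 6.38 on replicate 3, against at least 7.51. A dimmer Tgfbr3 probe set read 6.79 on replicate 1, against at most 6.28. Replicates 3 and 4 are the arrays with the lowest median intensity. The part of array quality in these values was not tested.

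Treg-partner differences unequal between systems were found by an interaction test in 3 cases. For Itgb8 the LP difference exceeded the homeostatic one by 6.37 (adjusted p = 3.42e-05) and the DEC one by 4.20 (adjusted p = 0.00139). These are gaps on the measured scale: the LP Tconv, DEC CD25- and both homeostatic means of Itgb8 lay below the filter, so their true size is not known. Foxp3 averaged 7.97 in DEC CD25- and 4.65 in LP Tconv cells, and its part in the gap with the DEC difference was not tested. For Smad3 the LP difference exceeded the homeostatic one by 1.16 (adjusted p = 0.0490).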

How the results depend on the processing

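Alternatives were quantile and cyclic loess normalization, no filter on dim probe sets, 1 probe set per gene, the mean of a gene's probe sets, the arrays of the compared groups alone, array weights, a replicate block, and leaving out arrays. Counts of the 9 members called moved past 1.5 times as follows; the others stayed closer to the counts in the report. LP Treg with LP Tconv (3 in the report) gave 1 with the compared arrays alone, 5 with the replicate block and 5 without DEC CD25- replicates 3 and 4. The number called over all 21612 probe sets went from 509 to 5, 931 and 833 in the same order. Homeostatic Foxp3+ with Foxp3- (1) gave 2 after quantile and 2 after cyclic loess normalization, 3 with the compared arrays alone, 3 with the replicate block, 4 with array weights and 3 without DEC CD25- replicates 3 and 4. Here the number over all probe sets went from 301 to 397, 389, 953, 612, 1654 and 563 in the same order. DEC CD25+ with CD25- (1) gave 0 with the compared arrays alone, 2 with array weights and 2 without DEC CD25- replicates 3 and 4. Over all probe sets it was 82 in the report and 4, 227 and 71 in these settings. LN CD103+Klrg1- with CD103-Klrg1- (0) gave 1 with array weights, where the number over all probe sets went from 18 to 124. LN CD103+Klrg1+ with CD103-Klrg1- (0) gave 1 with the replicate block (Itgb8, adjusted p = 0.0101), 1 with array weights and 1 without DEC CD25- replicates 3 and 4. All probe sets called went from 407 to 671, 942 and 612 in the same order. LP Treg with LN CD103-Klrg1- (1) gave 2 after either normalization, 2 with the mean of probe sets, 2 with the compared arrays alone, and 3 with the replicate block, array weights or without DEC CD25- replicates 3 and 4. All probe sets called went from 1088 to 1195 and 1356 after quantile and cyclic loess normalization and 1612 with the compared arrays alone. They were 1913, 2867 and 2162 in the settings named last, and the mean of probe sets called 563 of 11045 genes. LP Treg with LN CD103+Klrg1- (1) gave 2 with the mean of probe sets and 2 with the compared arrays alone. The mean of probe sets called 310 of 11045 genes, and the compared arrays alone 1373 probe sets, against 691 in the report. LP Treg with LN CD103+Klrg1+ (1) gave 2 with the mean of probe sets and 0 with the compared arrays alone. These settings called 260 of 11045 genes and 501 probe sets, against 511 probe sets in the report. The LP minus homeostatic difference (2) gave 1 after either normalization, with the mean of probe sets and with array weights, and 3 without DEC CD25- replicates 3 and 4. All probe sets called went from 152 to 180 and 193 after quantile and cyclic loess normalization. They were 165 with array weights and 279 without those replicates, and the mean of probe sets called 117 of 11045 genes. The LP minus DEC difference (1) gave 0 with the compared arrays alone, 2 with the replicate block and 2 without DEC CD25- replicates 3 and 4. Here the number over all probe sets went from 203 to 31, 373 and 247 in the same order. The homeostatic minus DEC difference (0) gave 1 with the replicate block and 2 with array weights. The cause of these moves was not tested.

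Leaving out 1 array at a time, the count ran from 0 to 1 in homeostatic Foxp3+ with Foxp3-, from 0 to 2 in DEC CD25+ with CD25-, was 0 throughout in LP Treg with LN CD103+Klrg1-, and ran from 0 to 1 in LP Treg with LN CD103+Klrg1+. It ran from 1 to 2 in the LP minus homeostatic and the LP minus DEC difference, and from 0 to 1 in the homeostatic minus DEC difference. A lone array left in a group is assumed to vary like the other groups. The difference of Itgav between LP Treg and LN CD103+Klrg1+, 0.0065 in the report and not called, was -0.030 after quantile normalization and ran from -2e-04 to 0.013 when 1 array was left out, while the mean of the Itgav probe sets gave 0.92 and a call (adjusted p = 0.0272).

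The same-number pairs of the gut and node arrays are 2 each, too few to tell a pairing. With the replicate block, Itgav (adjusted p = 0.00411) and Tgfbr2 (0.0278) were also called between LP Treg and LP Tconv, and Itgav (0.0330) and Tgfbr1 (0.0209) between LP Treg and LN CD103-Klrg1-. With 2 to 4 arrays a group, pooled mice and amplified RNA, differences near or under 1 log2 unit often could not be called, and Itgb8 below the filter cannot be told from background.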
